A study of Mus musculus with 10 samples.

Results

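The 8 genes described here make and restrain matrix proteolysis in mouse kidney. They are the matrix metalloproteinases Mmp2, Mmp7 and Mmp14, their tissue inhibitors Timp1, Timp2 and Timp3, and the plasminogen activators Plau and Plat. They were chosen by name, with earlier results of these data known, as 8 of the 28808 gene symbols in the deposited tables. The material was kidney cortex of mice aged 4 weeks, labelled normal or injured, and read as single cells by Drop-seq, in which each cell is caught in a droplet with a barcoded bead and each captured transcript is counted as a unique molecular identifier (UMI). There were 10 libraries: 1 control, labelled normal, 1 each of injured kidney at days 1, 2 and 4, and 2 each at days 7, 11 and 14. The labels used here name no strain, genotype, sex or kind of injury, and they do not say whether the libraries of a day came from separate animals, so the p-values below measure the spread between libraries, which may be technical. Days 1, 2 and 4 have 1 library each and were described without a test. The single control was assumed to vary like the days with 2 libraries.

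Matrix metalloproteinases are zinc enzymes that cut collagens, other matrix proteins and cell-surface proteins. Mmp14 is anchored in the cell membrane, and with Timp2 as an adaptor it activates the secreted gelatinase Mmp2, while Mmp7 (matrilysin) is a small secreted enzyme typical of epithelia. The tissue inhibitors block the active site of these enzymes, and Timp3 differs from the others in binding to the matrix itself. Plau (urokinase) and Plat (tissue-type plasminogen activator) turn plasminogen into plasmin. Urokinase is a well-known product of kidney tubules, and tissue-type activator is a well-known product of endothelium.

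Promoter windows are shown for the 3 members with the widest changes or the highest level among those with an entry in RefSeq's table (GRCm38.p6), where Mmp7, Timp3, Timp2, Mmp14 and Timp1 had one. Each runs 5′ to 3′ on the gene's strand from 250 bases before the start site to 50 bases after it. Motifs were searched on both strands, and their shares are of 32851 such windows. The AP-1 motif was read as TGANTCA, found in 7.81% of them. The ETS motif was read as CAGGAAG, found in 13.3%. The GC box was read as GGGCGG, found in 35.7%. The TATA box was read as TATAAA, found in 13.6%. Mmp7 had 2 windows in the table. The one shown lies at chr9:7691840-7692139, and its capitals mark an AP-1 match whose first base is at -63 from the start site. TATAAA stood at -123 and -26 in the same window. The other, at chr9:7692091-7692390, held CAGGAAG at -143 and no AP-1 match.
Mmp7: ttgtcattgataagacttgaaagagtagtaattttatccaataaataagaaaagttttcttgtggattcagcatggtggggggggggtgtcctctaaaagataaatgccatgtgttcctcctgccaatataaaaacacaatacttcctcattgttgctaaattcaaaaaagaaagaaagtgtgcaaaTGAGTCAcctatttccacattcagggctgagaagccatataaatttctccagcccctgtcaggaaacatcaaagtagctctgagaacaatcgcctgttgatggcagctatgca
The window of Timp1, at chrX:20869916-20870215, held CAGGAAG at -176, -100 and 39, in capitals, and a GC box at -8.
Timp1: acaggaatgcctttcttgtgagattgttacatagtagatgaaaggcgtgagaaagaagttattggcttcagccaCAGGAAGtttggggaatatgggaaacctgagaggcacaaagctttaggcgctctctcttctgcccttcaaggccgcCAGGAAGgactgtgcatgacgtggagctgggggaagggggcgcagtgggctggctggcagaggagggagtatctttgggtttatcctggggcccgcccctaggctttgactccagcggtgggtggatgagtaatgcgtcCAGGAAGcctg
The window of Timp3, at chr10:86300162-86300461, had no TGANTCA or TATAAA but held the GC box on the opposite strand at -15 and 13, in capitals, and CAGGAAG at -205.
Timp3: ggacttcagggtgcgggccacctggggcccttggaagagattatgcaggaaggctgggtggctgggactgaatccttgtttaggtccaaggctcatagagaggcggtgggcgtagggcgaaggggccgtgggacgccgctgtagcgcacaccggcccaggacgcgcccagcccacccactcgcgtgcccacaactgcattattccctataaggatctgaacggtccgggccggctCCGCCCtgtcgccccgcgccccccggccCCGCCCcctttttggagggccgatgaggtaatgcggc
Timp2 held a GC box at -37, and Mmp14 held one at -19 and one at -13. These matches describe letters in the windows and are not binding sites.

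In the GENCODE M21 annotation of GRCm38, Plat lies at chr8:22757727-22782844, Mmp2 at chr8:92827291-92853420, Mmp7 at chr9:7692090-7699585, Timp3 at chr10:86300372-86349506, Plau at chr14:20836660-20843385, Mmp14 at chr14:54431612-54445364 and Timp1 at chrX:20870166-20874735, all on the plus strand. Timp2 lies at chr11:118301069-118355740 on the minus strand. Timp3 lies inside Syn3, a synapsin gene on the opposite strand, and Timp1 lies inside Syn1. AV064505 overlaps Mmp7 on the opposite strand, and Cep295nl, which was not analysed here, overlaps Timp2 on the same strand. No source used here says that counting kept the strand, so reads of the paired genes cannot be told apart. In the kept cells Syn1 had 32 UMIs and AV064505 had 5. Syn3 had 43134, and its count was 9.28% to 22% of that of Timp3 in the tubular sums and 9.78% to 28.7% in the endothelial sums.

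The tables held 64803 barcodes and 173806985 UMIs, from 7091848 to 31632205 UMIs a library, and 52797 cells passed the filters, with a median of 1244 to 2661.5 UMIs a cell. Cells were put in classes by raw UMIs of fixed markers, none of which is a member. Tubular cells made up 42.4% to 93.5% of the kept cells of a library, and 3.41% to 18.1% met the rule of more than 1 class and were left out of the class sums. The cells left out held 19.4% to 68.5% of the Mmp2 UMIs of a library, 11.5% to 62.5% for Timp1 and 21.3% to 54.9% for Plat. Their share was 16.7% to 50.3% for Timp2, 17.5% to 41.6% for Mmp14 and 0% to 64.7% for Mmp7. It was 2.98% to 26.2% for Plau and 2.76% to 24.6% for Timp3. The class levels below do not include these UMIs. Classes with at least 30 cells were summed per library, which gave 10 tubular, 10 endothelial, 8 macrophage, 7 stromal, 5 podocyte and 3 T or NK cell sums. The genes that led each class, marker lists aside, included Slc5a8 and Bhmt2 in tubular cells, Sox17 and Thbd in endothelial cells, Aif1 and Cybb in macrophages, Lmod1 and Bgn in stromal cells, and Tcf21 and Npr3 in podocytes. Any pair of libraries shared 0 to 4 barcodes. Cell quality and makeup moved with the day. The median mitochondrial share of UMIs was 23.6% in the control, 3.64% and 4.32% at day 7, 15.3% and 11.9% at day 11, and 16.2% and 18.7% at day 14. Proximal tubule cells, the segment that reabsorbs most of the filtrate, were 59.98% of kept cells in the control, 12.5% and 13% at day 7, 63.9% and 71.2% at day 11, and 73.7% in each library of day 14. The part of these shifts in the results below was not tested, except where values within proximal cells or under a stricter mitochondrial limit are given.

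Timp3 was by far the most counted member, with 292697 UMIs in the kept cells, followed by Plau with 28277 and Plat with 12734. Timp2 had 3748, Mmp14 3446, Timp1 1764, Mmp2 705 and Mmp7 207. Mmp7 was listed in 7 of the 10 tables and missing from those of the control and both day 14 libraries, and Timp1 was missing from the table of day 14 replicate 1. The cell classes held the members unequally. Levels are given as CPM, the UMIs of a gene for every 1000000 UMIs of its class sum. Without further scaling, the median CPM of Plat was 1627 in podocytes and 1126 in endothelial cells, against 35.0 in stromal cells, 15.8 in macrophages and 13.6 in tubular cells. The ranges over libraries were 691 to 2101 in endothelial cells and 0.593 to 137 in tubular cells, so the lowest endothelial library stood above every tubular library. On the same unscaled measure Plau was the reverse, with a median of 154 in tubular cells, 82.1 in stromal cells, 66.4 in macrophages, 19.4 in endothelial cells and 4.71 in podocytes.

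Stromal cells, that is, fibroblasts and mural cells, had the highest unscaled medians of 2 enzymes and of 2 inhibitors: 311 CPM for Mmp14, 122 for Mmp2, 272 for Timp2 and 280 for Timp1. Mmp2 had a median of 48.9 in endothelial cells and 0.663 in tubular cells. Mmp14 followed in macrophages (80.3) and endothelial cells (63.5), with 10.6 in tubular cells and 0 in podocytes. Timp2 also had 207 in podocytes. Timp3 had medians of 3329 in endothelial cells, 2093 in podocytes, 1820 in stromal cells and 1758 in tubular cells, against 309.9 in the 3 T or NK cell sums and 178 in macrophages. Of the 207 UMIs of Mmp7, 141 lay in tubular cells, and its endothelial sums held 1 UMI in all.

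**Figure D1:**
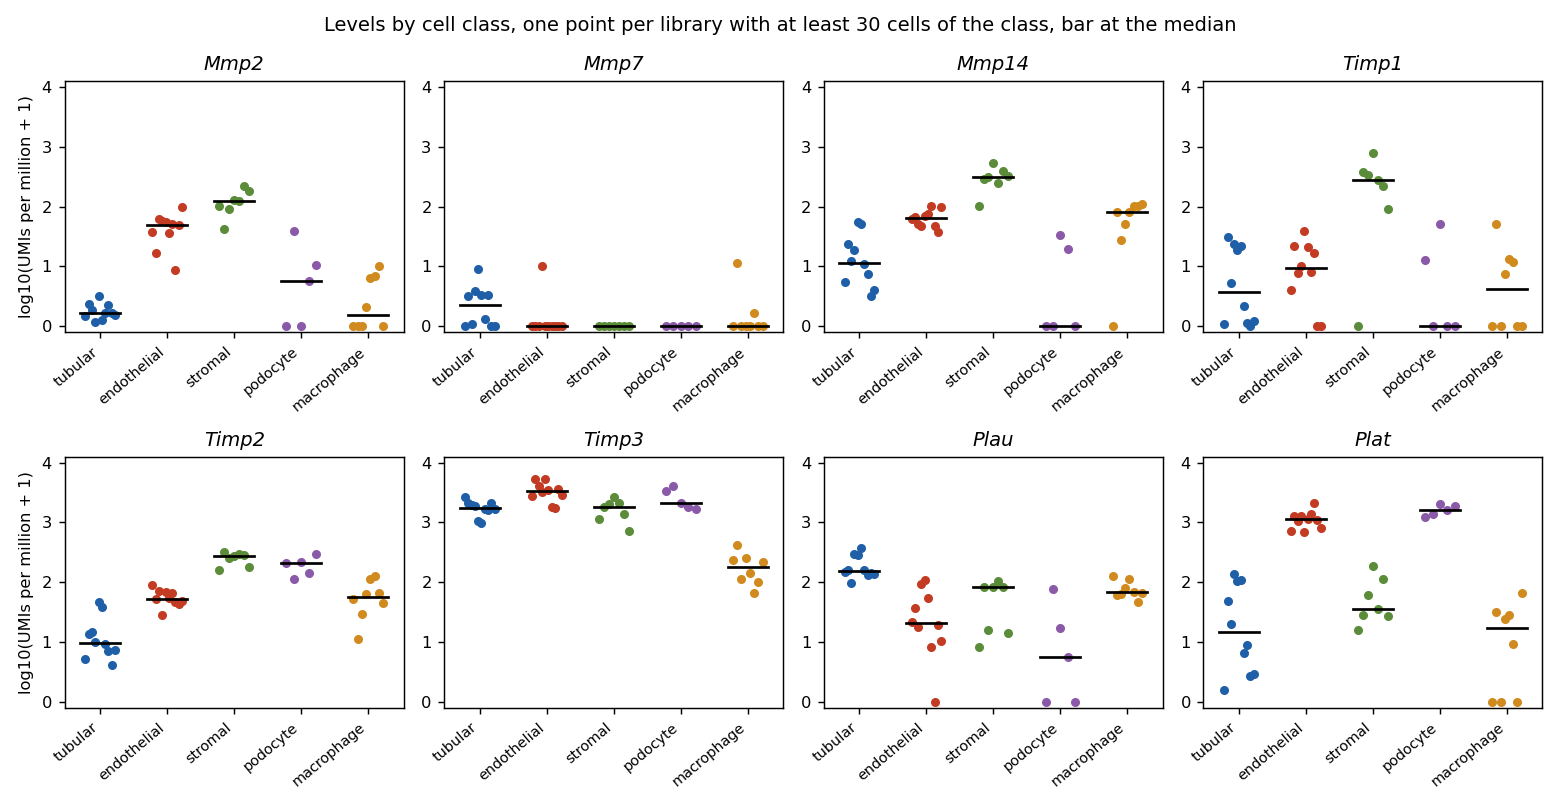
Unscaled level of each member, as log10(CPM + 1), in the library sums of 5 cell classes, with 1 point per library of at least 30 cells of the class and a bar at the median. Plat is highest in podocytes and endothelial cells (medians 1627 and 1126), Plau in tubular cells (154), and Mmp2, Mmp14, Timp1 and Timp2 in stromal cells.

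Each class was then compared with the mean of the other classes, with the library as a block, by the quasi-likelihood test of edgeR, with p-values adjusted after Benjamini and Hochberg over all genes tested. Mmp7 did not pass the filter on low counts and was not tested, so 7 members were tested in each. Stromal cells had higher levels of 5 members, where 25.7% of all genes were called and 16.0% were higher: Timp1 by 6.11 ± 0.51 (log2, SE), Mmp2 by 4.68 ± 0.42, Mmp14 by 3.66 ± 0.32, Timp2 by 2.38 ± 0.29 and Timp3 by 0.73 ± 0.21 (edgeR adjusted p = 1.06e-12 for Timp1 to 0.00668 for Timp3). Endothelial cells had 4 called, all higher, where 40.5% of all genes were called and 24.5% were higher: Plat was higher by 4.91 ± 0.43, Mmp2 by 2.79 ± 0.42, Timp3 by 2.02 ± 0.18 and Mmp14 by 1.47 ± 0.35 (edgeR adjusted p = 6.62e-13 for Timp3 to 0.000708 for Mmp14). The Mmp2 difference was 4.09 in endothelial and 5.68 in stromal cells without day 7 replicate 2, called in both. Podocytes had 5 called, against 31.9% of all genes. Plat was higher by 5.27 ± 0.52, Timp2 by 2.09 ± 0.35 and Timp3 by 1.53 ± 0.24, and Plau was lower (-2.19 ± 0.64), as was Mmp14 (-1.97 ± 0.76), which lost its call in 7 of 12 alternatives and was -2.65 without day 11 replicate 1. The edgeR adjusted p of these 5 ran from 4.65e-11 (Plat) to 0.0427 (Mmp14), and the call of Plau was lost without day 7 replicate 2 (edgeR adjusted p = 0.109). Tubular cells had 6 called, against 53.7% of all genes. Plau was higher by 2.93 ± 0.23 and Timp3 by 1.45 ± 0.19, while Mmp2 (-3.68 ± 0.89), Timp2 (-2.25 ± 0.32), Plat (-1.94 ± 0.50) and Mmp14 (-0.91 ± 0.39) were lower, Mmp14 losing its call in 8 of 12 alternatives (edgeR adjusted p = 1.68e-14 for Plau to 0.0479 for Mmp14). The call of Mmp2 was lost without day 7 replicate 2 (-2.42) and with cells of more than 1 class kept (-2.01), each with an edgeR adjusted p of 1. Timp3 was thus called higher in stromal, endothelial, podocyte and tubular cells alike. The mean of the other classes took in macrophages and T or NK cells, with unscaled Timp3 medians of 178 and 309.9 CPM. The tubular median of 1758 was below those of endothelial cells, podocytes and stromal cells. Macrophages had 4 called, against 42.0% of all genes. Timp3 (-2.89 ± 0.25) and Plat (-3.69 ± 0.73) were lower, and Mmp14 was higher by 1.26 ± 0.35 and Plau by 0.99 ± 0.30, both of which lost their calls on library totals without further scaling. The edgeR adjusted p ran from 9.57e-13 (Timp3) to 0.00682 (Plau), and the call of Mmp14 was also lost without day 7 replicate 2 (edgeR adjusted p = 0.0695).

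Levels over time are given below as scaled CPM, for every 1000000 of an effective total. This total is the UMIs of the genes that passed the filter on low counts in that class, times edgeR's TMM factor, so it leaves out the UMIs of filtered genes and the values cannot be set beside unscaled CPM. Without that scaling the median change of all genes in tubular sums was 0.86 (log2) from control to day 7 and -0.84 from day 7 to day 11, so changes are relative to the typical gene. With TMM, 2853 genes were called higher and 3060 lower in tubular cells at day 7 against control, and 3742 higher and 3468 lower at day 11 against day 7. Without it these splits were 8095 to 1106 and 1577 to 8443.

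In tubular cells the enzymes Mmp7, Mmp14 and Plat and the inhibitors Timp1 and Timp2 were higher at day 7 than in the control, and Timp3 was lower. By day 11 Mmp14, Plat, Timp1 and Timp2 had fallen and Timp3 had risen. At day 7 against control 6 of the 8 members were called, 5 higher and 1 lower, where 37.7% of the 15677 genes tested were called, 18.2% higher and 19.5% lower. The median change of the 8 members was 2.60 (log2) against 0.04 over all genes, also with Mmp7 at its lower bound. The members were chosen with earlier results of these data known, so comparisons with all genes are descriptions. At day 11 against day 7, 5 were called, 1 higher and 4 lower, where 46.0% of genes were called, 23.9% higher and 22.1% lower, with a median over the members of -1.40 against -0.06. At day 14 against day 11, 3 were called, all lower, where 12.2% of genes were called and 6.18% were lower. At day 14 against control 1 was called, higher, where 7.37% of genes were called and 4.06% were higher. These 4 comparisons share libraries, so their values stand side by side and are not independent. With a limit of 25% mitochondrial UMIs in place of 50%, the counts were again 6, 5, 3 and 1.

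**Figure D2:**
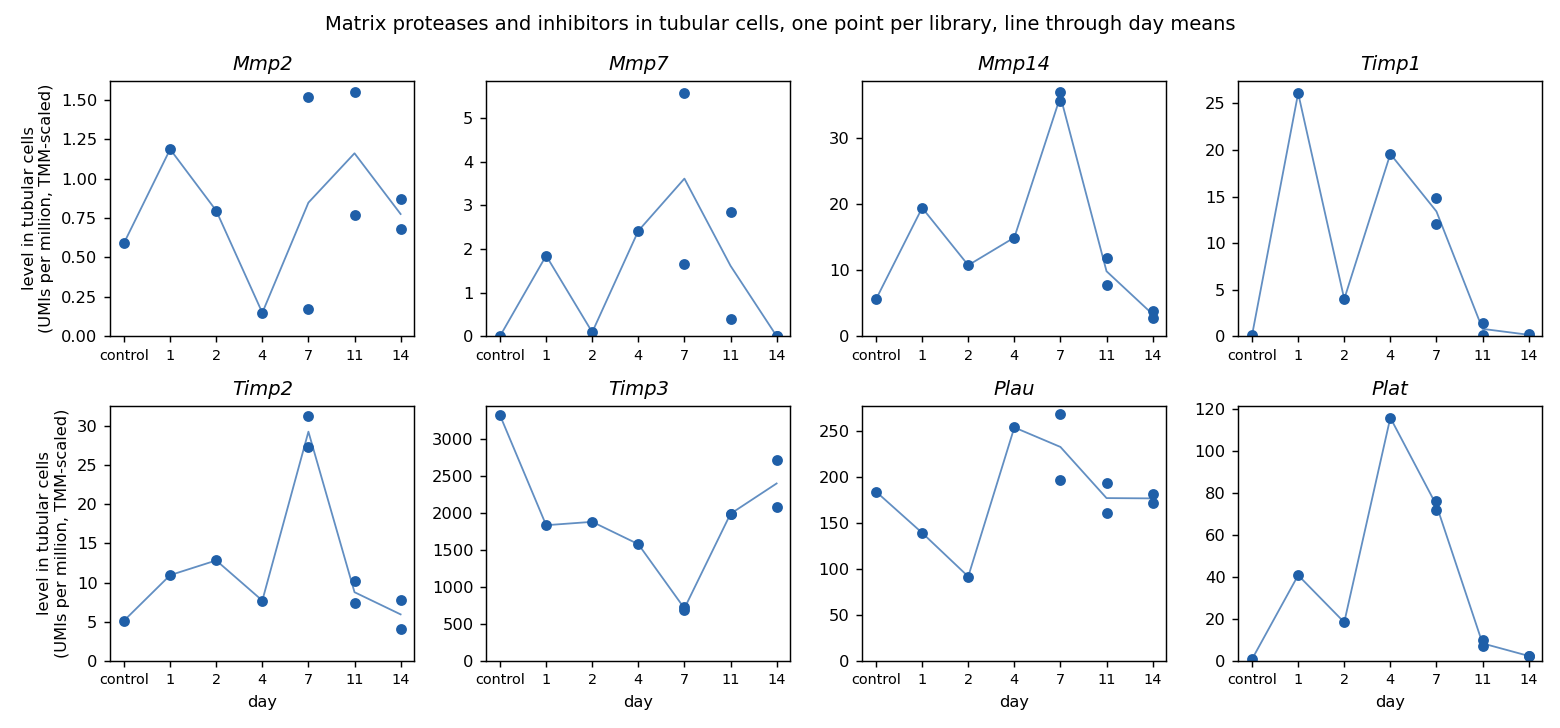
Scaled CPM of each member in tubular cells by library, from control through day 14 (1 panel per gene, each with its own axis, 1 point per library, a line through the means of the days). Plat, Timp1, Mmp14 and Timp2 stand high at day 7 and low at day 14, Timp3 is lowest at day 7, and Plau stays between 91.6 and 269.

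Mmp14, the membrane-bound enzyme, had 5.57 scaled CPM in control tubular cells, 19.4 at day 1, 10.7 at day 2 and 14.9 at day 4. It had 36.8 and 35.6 at day 7, 11.8 and 7.75 at day 11, and 2.80 and 3.8 at day 14. Day 7 was above all other libraries, and both day 14 libraries were below the control. Mmp14 rose by 2.70 ± 0.30 (log2, SE; edgeR adjusted p = 0.000132) from control to day 7, fell by 1.88 ± 0.23 (edgeR adjusted p = 0.000158) to day 11 and fell by 1.57 ± 0.26 (edgeR adjusted p = 0.00654) to day 14. The last call was lost without day 14 replicate 1 (edgeR adjusted p = 0.0684). In proximal cells alone the first change was 4.81 and the second -2.64, both called. Against control, day 14 was not called (-0.76 ± 0.30, edgeR adjusted p = 0.141).

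Mmp7, the matrilysin of epithelia, had no UMI in control tubular cells, where 3 counts would stand at 0.148 scaled CPM. It had 14 tubular UMIs at day 1, 1 at day 2 and 49 at day 4. At day 7 it had 33 and 19, at day 11 it had 3 and 22, and at day 14 it had none in either library. Day 7 was at least 20.2-fold higher than the control, taking 3 counts for the group at 0 (edgeR adjusted p = 0.011), from unequal levels of 5.58 and 1.65 scaled CPM in its libraries. Day 14 was lower than day 11, with 0 against 25 UMIs (edgeR adjusted p = 0.0337), but 22 of the 25 came from day 11 replicate 2. Without it day 11 had 3 UMIs, no more than the floor, so no fold is given. Few cells carried these counts: at day 7 replicate 1, 21 of the 33 UMIs came from 1 cell, and at day 11 replicate 2, 21 of 22 did. The day 7 call was lost in proximal cells alone (edgeR adjusted p = 0.0970). The day 14 call was lost without day 11 replicate 2 (edgeR adjusted p = 0.259), without day 14 replicate 1 (edgeR adjusted p = 0.145) and without day 14 replicate 2 (edgeR adjusted p = 0.123). At day 7 replicate 2, 44 of all 68 Mmp7 UMIs were in cells that met the rule of more than 1 class and so are in no class sum. Mmp2, the gelatinase, stayed between 0.148 and 1.55 scaled CPM in every tubular sum and was called in none of the 4 comparisons.

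Timp1, an inhibitor induced by injury and cytokines in many tissues, went from 0.0985 scaled CPM in control tubular cells (2 UMIs; 95% exact Poisson interval 0.0119 to 0.356) to 26.1 at day 1, 3.98 at day 2 and 19.6 at day 4. It had 12 and 14.8 at day 7, 1.42 and 0.129 at day 11, and 0 and 0.272 at day 14. The days up to day 7 thus did not overlap with the control or with days 11 and 14. Day 7 was 140.5-fold higher than the control, from 241 against 2 UMIs, with a counting interval of 38.5 to 1167 (edgeR adjusted p = 0.000275). Timp1 fell by 4.11 ± 0.58 from day 7 to day 11 (log2, SE; edgeR adjusted p = 0.00034). With 11 tubular UMIs in day 11 replicate 1 and 1 in replicate 2, the change was -6.60 without replicate 1 and -3.24 without replicate 2, and the call held in both. Day 14 against day 11 was not called (edgeR adjusted p = 0.168).

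Timp2, which also serves as the adaptor of Mmp14, had 5.12 scaled CPM in control tubular cells, 10.9 at day 1, 12.8 at day 2 and 7.69 at day 4. It had 31.3 and 27.3 at day 7, 10.2 and 7.36 at day 11, and 4.05 and 7.81 at day 14. As for Mmp14, both day 7 libraries were above all others. Timp2 rose by 2.51 ± 0.38 from control to day 7 (log2, SE; edgeR adjusted p = 0.000721) and fell by 1.74 ± 0.30 to day 11 (edgeR adjusted p = 0.00107).

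Markers of cell classes in which Mmp14, Timp1 or Timp2 was high were also counted at a low level in the tubular sums. All 9 mural markers were detected in every tubular sum, at a summed 14.7 scaled CPM in the control, 73.8, 41.3 and 36.7 at days 1, 2 and 4, 97.7 and 48.7 at day 7, 25 and 25.3 at day 11, and 17.2 and 19.2 at day 14. At least 10 of the 11 macrophage markers were detected, at 11.3 in the control, 33.1, 27.3 and 47.8 at days 1, 2 and 4, 152 and 56.5 at day 7, 28.1 and 32.5 at day 11, and 12.6 and 13.7 at day 14. The 8 fibroblast markers, of which Dpt was at 0 in day 11 replicate 1 and day 14 replicate 1, summed to 4.68 in the control, 21.6, 15.9 and 11.7 at days 1, 2 and 4, 13.5 and 8.70 at day 7, 16.9 and 17.4 at day 11, and 3.8 and 4.21 at day 14. Their part in the tubular changes of Mmp14, Timp1 and Timp2 was not tested.

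Timp3 ran the other way. It had 3317 scaled CPM in control tubular cells, 1832 at day 1, 1878 at day 2 and 1576 at day 4. It had 726 and 690 at day 7, 1989 and 1984 at day 11, and 2715 and 2079 at day 14. Every injured library was below the control, and day 7 was below all others. Timp3 fell by 2.23 ± 0.22 from control to day 7 (log2, SE; edgeR adjusted p = 6.13e-05) and rose by 1.49 ± 0.19 to day 11 (edgeR adjusted p = 0.000181). Day 14 against control was not called (-0.47 ± 0.22, edgeR adjusted p = 0.206). In proximal cells alone the changes were smaller, -1.67 to day 7 (edgeR adjusted p = 0.000576) and 0.66 to day 11 (edgeR adjusted p = 0.0356). Without TMM the changes in all tubular cells were also smaller, -1.40 to day 7 and 0.70 to day 11, both called.

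Control tubular cells had a Plat level of 0.739 scaled CPM (15 UMIs; 95% exact Poisson interval 0.414 to 1.22), against 40.7 at day 1, 18.3 at day 2 and 116 at day 4 (2350 UMIs; interval 111 to 121). It had 72.0 and 76.3 at day 7, 6.82 and 9.69 at day 11, and 2.18 and 2.38 at day 14. No library of days 1 to 7 overlapped with days 11 and 14, and the control was the lowest. Plat rose by 6.63 ± 0.34 from control to day 7 (log2, SE; edgeR adjusted p = 5.70e-06), fell by 3.17 ± 0.20 to day 11 (edgeR adjusted p = 9.38e-06) and fell by 1.85 ± 0.24 to day 14 (edgeR adjusted p = 0.00287). Day 14 was still higher than the control by 1.61 ± 0.37 (edgeR adjusted p = 0.0321), a call lost in 6 alternatives (edgeR adjusted p 0.061 to 0.158).

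The cells that carried Plat changed with it. Tubular cells held 2.11% of all Plat UMIs in the control (95% exact binomial interval 1.19% to 3.46%) and 71.4% at day 4 (69.8% to 72.9%). They held 24.7% at day 1, 16.5% at day 2, 51.1% and 37.9% at day 7, 4.81% and 7.27% at day 11, and 5.80% and 10.1% at day 14. In the control 33.8% of Plat UMIs were endothelial, 15.4% in podocytes and 48.0% in cells that met the rule of more than 1 class. These intervals cover counting error only. A share also depends on how many cells of each class were caught. Endothelial cells were 3.37% of kept cells in the control, 1.45% at day 4, and 4.36% and 2.31% at day 11. Podocytes were 0.685% in the control, 0.140% at day 4, and 3.14% and 1.80% at day 11. The part of these cell numbers in the shares was not tested. Markers of cells that carry Plat were present at low level in the tubular sums. All 13 endothelial markers were detected in every library and summed to 34.3 scaled CPM in the control, 104 at day 1, 50.3 at day 2, 24.0 at day 4, 55.3 and 30.4 at day 7, 57.6 and 69.6 at day 11, and 31.2 and 31.6 at day 14. All 9 podocyte markers were detected too and summed to 17.7 in the control, 67.8 at day 1, 40.6 at day 2, 23.2 at day 4, 53.4 and 38.5 at day 7, 56.5 and 47.9 at day 11, and 17.9 and 15.3 at day 14. Their part in tubular Plat was not tested.

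**Figure D3:**
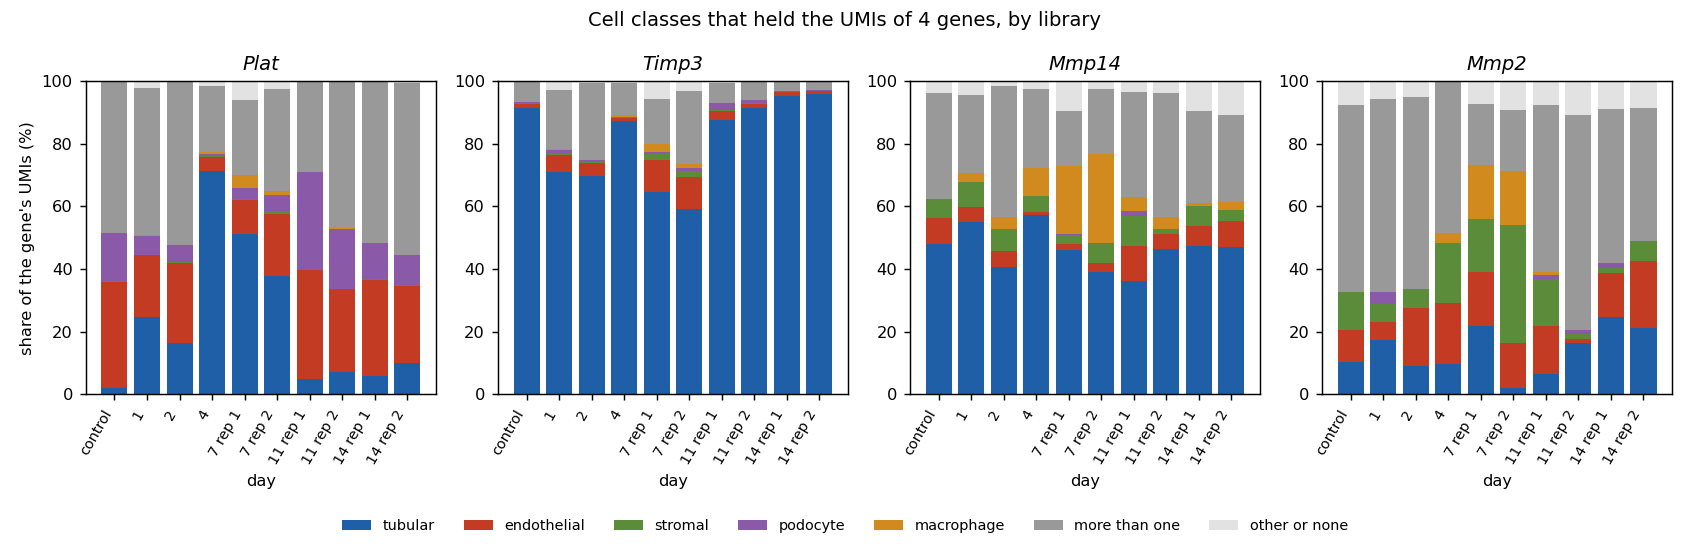
Percent of the UMIs of Plat, Timp3, Mmp14 and Mmp2 held by each cell class, by library (stacked bars from 0 to 100%). The tubular part of Plat goes from 2.11% in the control to 71.4% at day 4 and back to 4.81% and 7.27% at day 11, while the tubular part of Timp3 stays between 59.2% and 95.8%.

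Plau, the urokinase of tubules, had 184 scaled CPM in control tubular cells, 139 at day 1, 91.6 at day 2 and 254 at day 4. It had 197 and 269 at day 7, 194 and 160 at day 11, and 182 and 171 at day 14. Both day 7 libraries were above the control and the libraries of days 11 and 14, by little in replicate 1, and day 4 lay between them. Plau was not called from control to day 7 (0.34 ± 0.24, log2, SE; edgeR adjusted p = 0.291) or from day 7 to day 11 (-0.40 ± 0.19, edgeR adjusted p = 0.121). Its call depended on the scaling and on the segment. Without TMM it was higher at day 7 by 1.16 (edgeR adjusted p = 0.00279), and in proximal cells alone by 1.02 (edgeR adjusted p = 0.0316). Day 11 against day 7 was called on totals without TMM (-1.18), in proximal cells alone (-1.14) and without day 7 replicate 1 (-0.60).

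By segment, each scaled on its own and with no test between segments, proximal cells held 1856 of the 2350 tubular UMIs of Plat at day 4. Scaled within proximal sums, Plat had 1.11 CPM in the control, 54.3 at day 1, 131 at day 4, 149 and 188 at day 7, and 2.36 and 2.73 at day 14. In cells of the thick ascending limb, the segment that reabsorbs salt without water, Plat reached at most 14.1. In collecting duct principal cells, which take up water and salt under hormonal control, Plat had 0 UMIs in the control, where 3 counts would stand at 3.98, then 27.4 at day 1, 16.1 at day 4 and 13.1 and 6.42 at day 7, so its fold cannot be ranked against the other segments. Proximal Timp1 had 0.0857 in the control, 21.1 at day 4 and 23.3 and 28.3 at day 7, and Timp1 in the thick ascending limb reached 29.9 at day 1. Mmp14 in the thick ascending limb had 17.7 in the control, 67.3 and 62.8 at day 7 and 12.6 and 21.8 at day 14, against 0.857, 19.8 and 28.0, and 0.787 and 0.854 in proximal cells. In principal cells Timp2 had 54.5 in the control and 42.3 and 48.7 at day 7, with a range of 28.7 to 73.3, and Timp3 ranged from 286 to 667. Proximal Timp3 had 5218 in the control, 1828 and 1461 at day 7 and 3291 and 2490 at day 14.

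Sums over all kept cells gave another picture for Plat. In such sums fewer cells of a type and less RNA per cell cannot be told apart. Plat had 29.0 scaled CPM in the control, 119 at day 1, 128 at day 4, 85.4 and 107 at day 7, 111 and 117 at day 11, and 36.5 and 23.4 at day 14. It rose by 1.73 ± 0.29 from control to day 7 (log2, SE; edgeR adjusted p = 0.000732) and was not called at day 11 against day 7 (0.25 ± 0.21, edgeR adjusted p = 0.368), the step at which it fell in tubular cells. Day 7 against control called 6 members, where 36.7% of genes were called, and the called ones were those of the tubular test. Day 11 against day 7 called 5, where 44.7% of genes were called: Mmp14 (-1.26), Timp1 (-2.81) and Timp2 (-1.14) were lower, Timp3 was higher by 1.51, and Mmp2 was higher by 1.01, which became 0.35 without TMM and was then not called (edgeR adjusted p with TMM 0.000131 for Timp3 to 0.00723 for Mmp2). Without TMM Mmp14 was at -1.91, Timp1 at -3.46, Timp2 at -1.80 and Timp3 at 0.85, all still called. Timp1 was not called by DESeq2 (adjusted p = 0.058), and its change was -4.31 without day 11 replicate 1 and -2.14 without day 11 replicate 2. Day 14 against day 11 called 6, all lower, where 18.0% of genes were called and 8.97% were lower: Mmp2 (-1.41), Mmp14 (-1.55), Timp1 (-3.95), Timp2 (-1.23), Plat (-1.93) and Mmp7, with 0 against 25 UMIs, 22 of them in day 11 replicate 2 (edgeR adjusted p = 0.000655 for Plat to 0.0135 for Mmp7). The call of Timp1 was lost without day 11 replicate 1 (-2.45, edgeR adjusted p = 0.201) and without day 14 replicate 1 (-2.91, edgeR adjusted p = 0.0533), its value was -8.39 without day 14 replicate 2, and that of Mmp7 without day 11 replicate 2 (edgeR adjusted p = 0.0883). Day 14 against control called 0 by edgeR, where 8.43% of genes were called, with 1 member at an unadjusted p under 0.05 and 0 called by DESeq2.

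Endothelial cells did not share the tubular course. Scaled within endothelial sums of 93 to 286 cells, Plat had 815 CPM in the control, 1389 at day 1, 1257 at day 2 and 1333 at day 4. It had 682 and 1159 at day 7, 1626 and 2444 at day 11, and 1211 and 902 at day 14. Timp3 had 3201 in the control, 5872 at day 1, 4851 at day 2, 3282 at day 4, 5168 and 3476 at day 7, 2148 and 2021 at day 11, and 4005 and 3203 at day 14. Day 7 thus stood on both sides of the control for Plat and above it for Timp3, and day 11 was the highest for Plat and the lowest for Timp3. Mmp14 ranged from 39.3 to 119, Timp2 from 28.4 to 102 and Mmp2 from 8.98 to 106.

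In the endothelial tests 6 members passed the filter, all but Mmp7 and Timp1. Day 7 against control called 0 by edgeR, where 2.54% of genes were called, with 0 members at an unadjusted p under 0.05 and 0 by DESeq2. Day 11 against day 7 called 3, where 7.40% of genes were called. Plat rose by 1.11 ± 0.27 (log2, SE; edgeR adjusted p = 0.00782), Timp3 fell by 1.05 ± 0.23 (edgeR adjusted p = 0.00371) and Plau fell by 3.53 ± 0.91 (edgeR adjusted p = 0.0132). All 3 calls were lost without day 7 replicate 1 (edgeR adjusted p 0.102, 0.060 and 0.0948), and DESeq2 called 1 of them. Plau rested on 14 and 21 UMIs at day 7 against 2 and 0 at day 11, and fell by 0.92 without a call when cells of more than 1 class were kept (edgeR adjusted p = 0.151). Plat too lost its call with those cells kept (0.64, edgeR adjusted p = 0.0842) and without day 11 replicate 2 (0.81, edgeR adjusted p = 0.121), and Plau without day 11 replicate 1 (-6.80, edgeR adjusted p = 0.0631) and without day 11 replicate 2 (-2.98, edgeR adjusted p = 0.0543). Mmp2, at 0.03 and not called, gained a call with cells of more than 1 class kept (1.38, edgeR adjusted p = 0.0143). Proximal tubule markers (10 to 15 of 16 detected) in the endothelial sums went from 382 and 191 scaled CPM at day 7 to 1040 and 1267 at day 11. Macrophage markers went from 374 and 173 (10 and 11 of 11 detected) to 76.4 and 44.9 (7 and 5 detected, with Emr1 and Ly86 at 0 in both day 11 libraries). Podocyte markers (4 to 6 of 9 detected) went from 210 and 188 to 110 and 126. Mural markers (4 to 7 of 9 detected) went from 142 and 188 to 63.7 and 44.9. Fibroblast markers (2 to 7 of 8 detected) went from 52.4 and 35.6 to 55.2 and 71.9. The part of these other cells in the result was not tested. Day 14 against day 11 called 0 by edgeR, where 2.92% of genes were called, with 2 members at an unadjusted p under 0.05 and 0 by DESeq2. These 2 were Plat (-0.93 ± 0.27, edgeR adjusted p = 0.0576) and Timp3 (0.79 ± 0.23, edgeR adjusted p = 0.0586). Each was opposite in sign to its change from day 7 to day 11. The count stayed at 0 in 7 of 15 alternatives and reached at most 2. Day 14 against control called 0 by edgeR, where 0.680% of genes were called, with 0 members at an unadjusted p under 0.05 and 0 by DESeq2.

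The difference between the endothelial and the tubular change was tested directly, with the library as a term. From control to day 7 it was called for 4 members, where 3.30% of 15243 genes were called. In the endothelial sums alone, 5591 genes passed the filter on low counts, among them 6 of the 8 members. Many of the 15243 genes thus had few endothelial counts, and the shares of all genes given here are not matched to the members in counts. Relative to tubular cells, the endothelial change was lower for Plat (-6.50 ± 0.43, log2, SE; edgeR adjusted p = 1.69e-06), for Timp2 (-3.32 ± 0.50, edgeR adjusted p = 0.00103) and for Mmp14 (-2.61 ± 0.55, edgeR adjusted p = 0.0148), and higher for Timp3 (2.58 ± 0.25, edgeR adjusted p = 2.16e-05). From day 7 to day 11 it was called for 4, where 2.79% of genes were called: higher for Plat (4.31 ± 0.30, edgeR adjusted p = 5.48e-06) and Mmp14 (2.14 ± 0.47, edgeR adjusted p = 0.0212), and lower for Timp3 (-2.51 ± 0.20, edgeR adjusted p = 1.63e-05) and Plau (-3.22 ± 0.83, edgeR adjusted p = 0.045). The call of Plau held in 2 of 12 alternatives, and its value was -10.7 without day 11 replicate 1, -2.60 without day 11 replicate 2 and -0.58 with cells of more than 1 class kept. The call of Mmp14 was lost at both steps when any 1 library of day 7 or day 11 was left out. At the second step the call of Timp3 was lost without day 11 replicate 1 (edgeR adjusted p = 0.0502) and without day 11 replicate 2 (edgeR adjusted p = 0.0720), and that of Plat without day 11 replicate 2 (edgeR adjusted p = 0.0720). Timp2 was not called in the second step (1.87, edgeR adjusted p = 0.0519), but was called in 4 of 12 alternatives. These were edgeR's older quasi-likelihood fit, used in the other tests here (edgeR adjusted p = 0.0362), and no TMM (2.42, edgeR adjusted p = 0.0115). The others were DESeq2 size factors (edgeR adjusted p = 0.0421) and cells of more than 1 class kept (edgeR adjusted p = 0.0136).

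**Figure D4:**
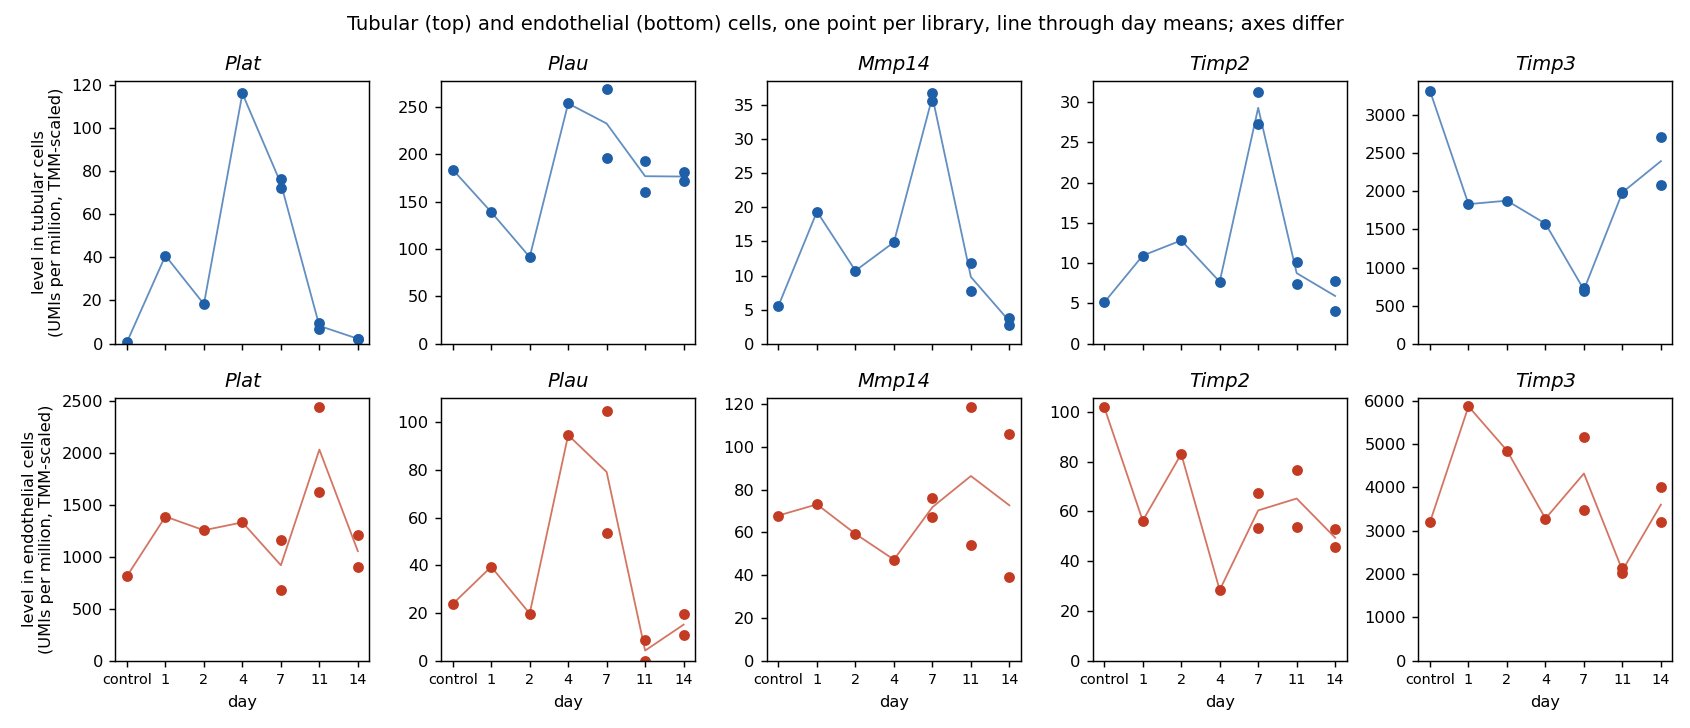
Scaled CPM of Plat, Plau, Mmp14, Timp2 and Timp3 in tubular (top) and endothelial (bottom) cells, each class scaled on its own, with 1 point per library, a line through the means of the days and axes that differ between panels. Tubular Plat falls from 72.0 and 76.3 at day 7 to 6.82 and 9.69 at day 11, while endothelial Plat goes from 682 and 1159 to 1626 and 2444.

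Stromal cells reached 30 cells in 7 libraries, control through day 11 replicate 1, and were not tested over days. Scaled within stromal sums, Timp1 had 0 in the control, where 3 counts would stand at 31.2, 496 at day 1, 439 at day 2, 1004 at day 4, 343 and 281 at day 7 and 126 at day 11. These are few cells: 20 of 28 Timp1 UMIs at day 1 and 24 of 38 at day 4 came from 1 cell each. Mmp14 had 146 in the control, 372, 401 and 687 at days 1, 2 and 4, 300 and 487 at day 7 and 450 at day 11. Mmp2 had 146 in the control and 53.2 to 273 in the injured libraries. In podocytes, summed in 5 libraries, Plat went from 1565 in the control to 1784 at day 1, 2152 at day 7 and 2064 and 2347 at day 11, and Timp3 had 4121 in the control, 5139 at day 1, 2240 at day 7 and 2315 and 2110 at day 11. Macrophages had 32 cells in the control and 882 and 1416 at day 7. Their Mmp14 had 0 UMIs in the control, where 3 counts would stand at 72.5 scaled CPM and the exact Poisson interval reached 89.2. It had 79.5 and 110 at day 7 and 125 and 104 at day 11. In macrophages day 7 against control called 0 of the 6 members tested by edgeR, where 1.53% of genes were called, with 1 member, Mmp14, at an unadjusted p under 0.05 and 0 by DESeq2. Day 11 against day 7 called 0 by edgeR, where 2.28% of genes were called, with 0 at an unadjusted p under 0.05 and 0 by DESeq2.

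Within the tubular cells of days 1 to 7, Plat was higher in the cells that carried injury markers. A cell counted as injury-marked with at least 2 of Havcr1, Krt20, Sprr2f, Sprr2g, Sprr1a and Lcn2 and at least 3 UMIs of them, and 5 libraries had at least 30 such cells. Unscaled, Plat had 39.8 CPM in other and 52.9 in marked tubular cells at day 1, 8.56 and 61.4 at day 2, 59.8 and 252 at day 4, and 64.8 and 164, and 45.4 and 212, at day 7. Timp3 had 2527 and 1773 at day 1, 2249 and 938 at day 2, 2373 and 1085 at day 4, and 1274 and 726, and 1064 and 781, at day 7. Plat was thus higher and Timp3 lower in marked cells in 5 of 5 libraries.

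With the library as a block, 4 of the 6 members tested were called, where 14.9% of genes were called. Plat was higher by 1.71 ± 0.26 (log2, SE; edgeR adjusted p = 0.00723), Timp1 by 0.94 ± 0.21 (edgeR adjusted p = 0.0217) and Timp2 by 0.72 ± 0.21 (edgeR adjusted p = 0.0471), and Timp3 was lower (-0.92 ± 0.15, edgeR adjusted p = 0.00797). Mmp14 (0.19) and Plau (0.11) were not called. The call of Timp2 was lost in 5 of 10 alternatives, and that of Timp1 without day 4 (edgeR adjusted p = 0.124), without day 7 replicate 1 (edgeR adjusted p = 0.0524) and without day 7 replicate 2 (edgeR adjusted p = 0.068). Marked cells were deeper, with a median of 1821.5 to 3793 UMIs a cell against 1323 to 1922.5 in the others. Marked and other cells were each summed over all segments, and their segment makeup was not matched. The parts of depth and of segment in these differences were not tested.

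**Figure D5:**
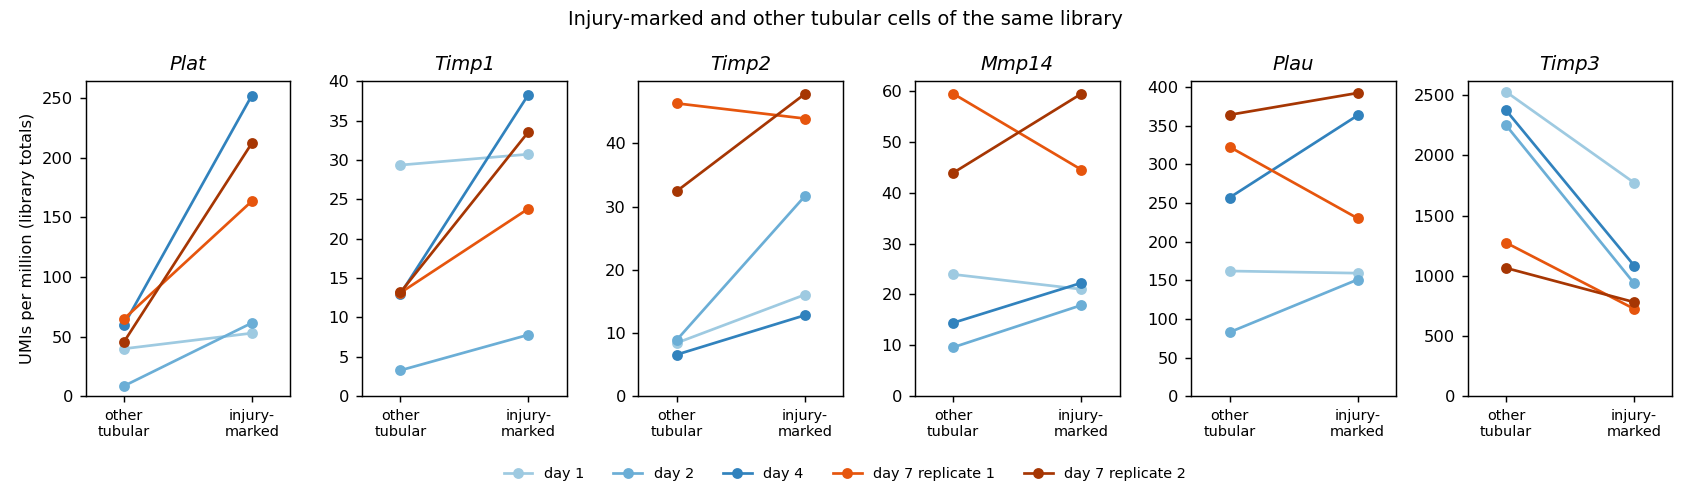
Unscaled CPM of 6 members in injury-marked and other tubular cells of 5 libraries (axes from 0, differing between panels), with a line joining the 2 values of each library. Plat is higher and Timp3 lower in the marked cells of all 5 libraries, and Timp1 is 30.7 against 29.3 at day 1 and 38.3 against 13 at day 4.

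Other genes of the system were read from a list of 54 proteases and inhibitors and a list of 20 matrix proteins. Both lists were chosen with earlier results of these data known. In tubular cells at day 7 against control, 20 of the 47 proteases and inhibitors tested were higher and 11 lower, where 18.2% of all genes were higher and 19.5% lower, with a median change of 0.75 (log2) against 0.04 over all genes. Plaur, the receptor of urokinase, rose by 7.08 ± 0.65 (edgeR adjusted p = 4.44e-05). Ctss, a lysosomal protease of phagocytes, rose by 6.21 ± 0.74 (edgeR adjusted p = 0.000194). Macrophage markers in the tubular sums were at 11.3 scaled CPM in the control and at 152 and 56.5 at day 7, and their part in the changes of Plaur and Ctss was not tested. Mep1b, a brush border metalloprotease of proximal cells, fell by 5.33 ± 0.56 (edgeR adjusted p = 9.45e-05), Serpinf2, the plasmin inhibitor, fell by 3.49 ± 0.41 (edgeR adjusted p = 0.000175) and A2m fell by 2.93 ± 0.97 (edgeR adjusted p = 0.0379). Of the 19 matrix proteins tested 15 were higher and 0 lower, with a median of 2.01, led by Tgfbi (5.14 ± 0.97), Fn1 (5.01 ± 0.41) and Nid1 (4.23 ± 0.50). Mural, macrophage and fibroblast markers were also higher in the day 7 tubular sums than in the control, at the values given above, and 17 of the 20 matrix proteins were higher in the stromal class than in the mean of the other classes, where 16.0% of all genes were. The part of those cells in the matrix list was not tested.

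At day 11 against day 7 the balance of the lists turned. Among the proteases and inhibitors 10 were higher and 20 lower, where 23.9% of all genes were higher and 22.1% lower, with a median of -0.88 against -0.06 over all genes. Mep1b (5.42 ± 0.53), Serpinf2 (3.66 ± 0.38) and Mep1a (2.99 ± 0.33) were higher, and Adam8 (-4.34 ± 0.44), Adamts4 (-3.42 ± 0.60) and Plaur (-3.25 ± 0.38) lower. Of the matrix proteins 13 were lower and 0 higher, led by Nid1 (-2.99 ± 0.38), Fn1 (-2.61 ± 0.27) and Spp1 (-2.39 ± 0.24). At day 14 against day 11 Adamts9 was higher (0.80 ± 0.22) and 6 were lower, led by Mmp12 (-3.98 ± 0.92), Mmp23 (-3.24 ± 0.62) and Ctss (-2.24 ± 0.53), with 5 matrix proteins lower, where 12.2% of all genes were called. Macrophage markers in the tubular sums were at 152 and 56.5 scaled CPM at day 7, 28.1 and 32.5 at day 11, and 12.6 and 13.7 at day 14. Their part in the changes of Adam8, Plaur, Mmp12 and the other listed genes was not tested. At day 14 against control Htra1 (1.39 ± 0.22) and Ctsd (0.91 ± 0.21) were higher and 1 matrix protein, Lamb1, was lower (-0.67 ± 0.18), where 7.37% of all genes were called. In injury-marked against other tubular cells 6 of 31 proteases and inhibitors were higher and 6 lower, where 14.9% of all genes were called, led by Adam8 (1.84 ± 0.26) and Plaur (1.16 ± 0.22) above and Tfpi2 (-1.42 ± 0.23) and Serpinf2 (-1.08 ± 0.16) below.

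For each member the 3 genes most alike over the 43 class sums were found by Pearson's r of log2(CPM + 1), among 9790 genes and without a test, since sums of a class share libraries and class makeup. Timp3 was most like Syn3 (r = 0.97), the gene on the other strand of its locus, then Zbtb20 and Sptbn1 (0.86 each). Timp1 was most like Tnc (0.81), Osmr (0.78) and C1rb (0.74). Plat was most like Sbds (0.88), Vgll4 (0.88) and Ppap2a (0.87), Mmp14 like Ecm1 (0.82), Rab31 (0.81) and Leprel2 (0.81), and Timp2 like Nptn (0.89), Myadm (0.84) and Rnf150 (0.83). Mmp2 was most like Mcam, a mural marker, Ptn and Pcp4l1 (0.90 each). Plau was most like Rnf128 (0.80), Ppp1r14b (0.77) and Rbm47 (0.75), and Mmp7, with its few UMIs, like Fgg (0.62), Ccl20 (0.57) and Sprr2g (0.53).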

How the data were processed

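Drop-seq libraries of mouse kidney cortex were read as deposited count tables, 1 per library, with genes in rows and cells in columns. Per the labels' protocols, cDNA was amplified by PCR and its 3′ end made into libraries with a modified Nextera XT protocol. Bowtie2 2.2.7 and mm10 are named in the submitters' processing notes. The whole-number counts that the authors deposited were read as UMIs, which the labels used here do not state, and the strand setting is not given in the sources used here. Cells with 500 or more UMIs from 500 or more genes were kept if mitochondrial UMIs were 50% or less (the tables of day 11 start at 300 genes, the others at 500). A cell joined a class with at least 2 of its markers and 3 marker UMIs, and a tubular cell joined the segment whose summed marker UMIs were at least 3 times the next. No doublet caller was run, and cells of more than 1 class, which doublets and free RNA can give, stayed out of the class sums. Library sums of at least 30 cells entered edgeR 4.0.16 (R 4.3.3, limma 3.58.1): filterByExpr, TMM, quasi-likelihood test with 1 coefficient per group over all libraries, Benjamini-Hochberg, adjusted p under 0.05. The test of the difference between classes used edgeR's newer quasi-likelihood fit, and the other edgeR tests used its older (legacy) fit. The SE printed with a log2 change was derived as its absolute value over the square root of the test's F statistic. The test between days was tried on simulated tubular counts, for day 11 against day 7 alone and with the same spread for every gene. The cell classes, the other tests and changes in genes with few counts were not simulated. Poisson and binomial intervals are exact, at 95%, and cover counting error only. A group at 0 was taken as 3 counts for a fold. Alternatives were DESeq2 1.42.0 and its size factors, no filter, 25% mitochondrial UMIs, cells of more than 1 class kept, 1 more marker, proximal cells alone, only the groups compared, a replicate block and each library left out. Library totals without TMM, podocytes as a class, the injury-marked comparison and the difference between classes were added after seeing the data. The rule for named genes was all 8 members, the 3 genes most alike each, and up to 3 called genes per direction of 2 lists. A result for 1 gene under this rule is not reported here. The members and lists were chosen with earlier results of these data known. Python 3.11.15, pandas 2.3.3, scipy 1.17.1 and matplotlib 3.10.9 were used for sums, intervals and plots.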

Additional observations from a re-analysis of the deposited data

Results flagged for a closer look

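The change in endothelial cells differed from the change in tubular cells, by a test of the difference itself, for 4 members at each of 2 steps. From control to day 7 the endothelial minus tubular change was -2.61 (log2) for Mmp14, -3.32 for Timp2, 2.58 for Timp3 and -6.50 for Plat. From day 7 to day 11 it was 2.14 for Mmp14, -2.51 for Timp3, -3.22 for Plau and 4.31 for Plat. Both steps share the day 7 libraries. With 1 library left out the second step called 0 to 3 members, and the call of Plau held in 2 of 12 alternatives, with values from -10.7 to -2.60 when 1 library was left out. At the first step the call of Mmp14 was lost when any 1 library of day 7 or day 11 was left out.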

How the results depend on the processing

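Of 292 recomputed counts of called members 263 stayed within 1.5 times, and of 1117 recomputed gene results 999 kept their direction and side of the threshold, 77 lost the call, 33 gained it and 8 turned. Counts moved as follows. All cells, day 14 against control went from 0 to 1 with no filter, with 25% mitochondrial UMIs and with only the groups compared. Tubular cells, day 14 against control went from 1 to 0 with cells of more than 1 class kept, with 1 more marker, in proximal cells alone and with only the groups compared. Endothelial cells, day 11 against day 7 went from 3 to 1 by DESeq2, and day 14 against day 11 went from 0 to 1 without TMM, with DESeq2 size factors, with 25% mitochondrial UMIs, with cells of more than 1 class kept and with only the groups compared. The macrophage class went from 4 to 2 without TMM. With each library left out, the counts ranged from 1 to 3 (tubular cells, day 14 against day 11), 0 to 1 (tubular cells, day 14 against control), 0 to 3 (endothelial cells, day 11 against day 7), 0 to 2 (endothelial cells, day 14 against day 11), 3 to 5 (podocytes), 2 to 3 (injury-marked cells, 4 with all libraries) and 0 to 3 (endothelial minus tubular, day 11 against day 7, 4 with all libraries). The direction turned for 3 values, none of them called under the main steps: Plau in all cells, day 7 against control, was 0.06 and ranged from -0.0822 to 0.194 with each library left out (lowest without day 7 replicate 2). Without TMM it was 0.76 and called (edgeR adjusted p = 0.0122). Timp1 in tubular cells, day 14 against day 11, was -2.48 and ranged from -6.24 to 0.0143 (highest without day 11 replicate 1). With no filter it was -2.43 and called (edgeR adjusted p = 0.0273). Mmp2 in endothelial cells, day 11 against day 7, was 0.03 and became -0.25 without TMM, -0.25 by DESeq2, -0.0137 with no filter and -0.0174 with only the groups compared, and ranged from -2.10 (without day 11 replicate 1) to 0.54 with each library left out, with -0.33 without day 7 replicate 2. With cells of more than 1 class kept it was 1.38 and called (edgeR adjusted p = 0.0143). The cause was not tested. Correlations of the deviations of same-numbered libraries over 11375 genes were 0.196 for days 7 and 11, -0.0738 for days 7 and 14 and -0.112 for days 11 and 14. With 2 libraries a day these values cannot show or exclude that replicate numbers pair the libraries. A replicate block left 34 of 35 results as they were and ended the call of Mmp7 in tubular cells, day 14 against day 11 (-7.14, edgeR adjusted p = 0.0567). Depth limits Mmp7 and Mmp2 most, with 207 and 705 UMIs in all.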
